A study of Rattus norvegicus with 17 samples.

Results

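The genes described here are 36 genes of fatty acid oxidation and of the nuclear receptor PPARA, grouped into the mitochondrial, peroxisomal and ketone body steps with their transporters, regulators and targets. A gene was chosen by its symbol, where the platform annotation of the array gives that symbol alone for a probe set. Of the 36 genes, 34 had such a probe set, among 14557 genes in all, and none of the 34 had more than 1. Slc27a2 and Crat are not analysed here. Of the 34 genes, 33 passed the filter on dim genes, which asked for a log2 signal above 1.73 in 4 or more arrays, where 1.73 is the 25th percentile over the whole table. Acot1, which encodes an acyl-CoA thioesterase, had a mean log2 signal of 1.32, lay below that value in all 17 arrays and was not tested.

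Liver RNA of 17 male Wistar pups aged 24 days was measured, with 1 array per pup and 1 pup per litter. Every mother had been fed a choline-deficient AIN-93 M diet for 16 weeks to establish fatty liver before she was mated with a healthy Wistar male on the standard AIN-93 M diet. Through pregnancy and then through lactation the mothers received either the deficient diet (D) or the standard AIN-93 G diet with adequate choline (N). The first letter of a group gives the pregnancy diet and the second the lactation diet, so that NN, ND and DD comprised 4 livers each and DN comprised 5. Every pup of the 4 groups thus had a mother with induced fatty liver, and pups of mothers without it are not part of the comparison. In whole liver, fewer cells of a type and less RNA per cell cannot be told apart.

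Fatty acids enter the hepatocyte, are joined to coenzyme A and reach the mitochondrial matrix as carnitine esters through CPT1A, the carrier SLC25A20 and CPT2. There each round of beta-oxidation removes an acetyl-CoA unit in a dehydrogenation, a hydration, a further dehydrogenation and a thiolytic cleavage, and electrons pass through the electron transfer flavoprotein to ubiquinone. Peroxisomes shorten very long chains and dicarboxylic acids, and the liver turns surplus acetyl-CoA into ketone bodies for other tissues. PPARA senses fatty acids, pairs with the retinoid X receptor and binds direct repeats in the promoters of many genes of these steps. In the suckling rat, milk fat is the main fuel and hepatic fatty acid oxidation and ketone formation are known to be high. Choline is needed for the phosphatidylcholine of secreted lipoproteins, and its lack lets fat accumulate in the liver.

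The arrays were checked as liver first, because a free-text field on every sample names the prostate line LnCap while the tissue field names liver. Of 10 hepatocyte markers 7 were measured, with mean log2 signals of 8.24 to 11.69. Their average was 10.31 in NN, 10.39 in ND, 10.36 in DN and 10.33 in DD. Array medians lay between 2.50 and 2.71. The spread of an array, which is the standard deviation of all its log2 values, ranged from 1.62 in DD 3 to 1.79 in ND 4, NN 2 and DN 4. Its group means were 1.70 in NN, 1.74 in ND, 1.75 in DN and 1.67 in DD. The DD and DN means differed with p = 0.0476 (2-sided exact permutation test) and adjusted p = 0.257 over the 6 pairs of groups. DN 3 and DD 3 were least like the rest, with mean correlations of 0.954 and 0.955. The replicates are separate animals from separate litters, and their number limits the precision of every comparison: the median standard error (SE) of a difference between groups of 4 was 0.173 on the log2 scale.

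The genes of fatty acid oxidation had a median SD between livers of 1 group of 0.367, against 0.248 for all 12912 genes tested and 0.354 for the 1169 genes with a mean log2 signal of 6 or more. On some arrays most of the 33 genes deviated the same way. In DD 3, 3 of the 33 genes lay above their own mean over all arrays, and their median deviation was -0.52. In DN 4, 30 of 33 lay above their mean, with a median deviation of 0.49, and in NN 2, 29 of 33 did so, with 0.26. These 3 arrays also lay at the ends of the range of array spread. The 1169 brighter genes deviated the same way in them, by -0.39 in DD 3, 0.20 in DN 4 and 0.20 in NN 2.

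**Figure D1:**
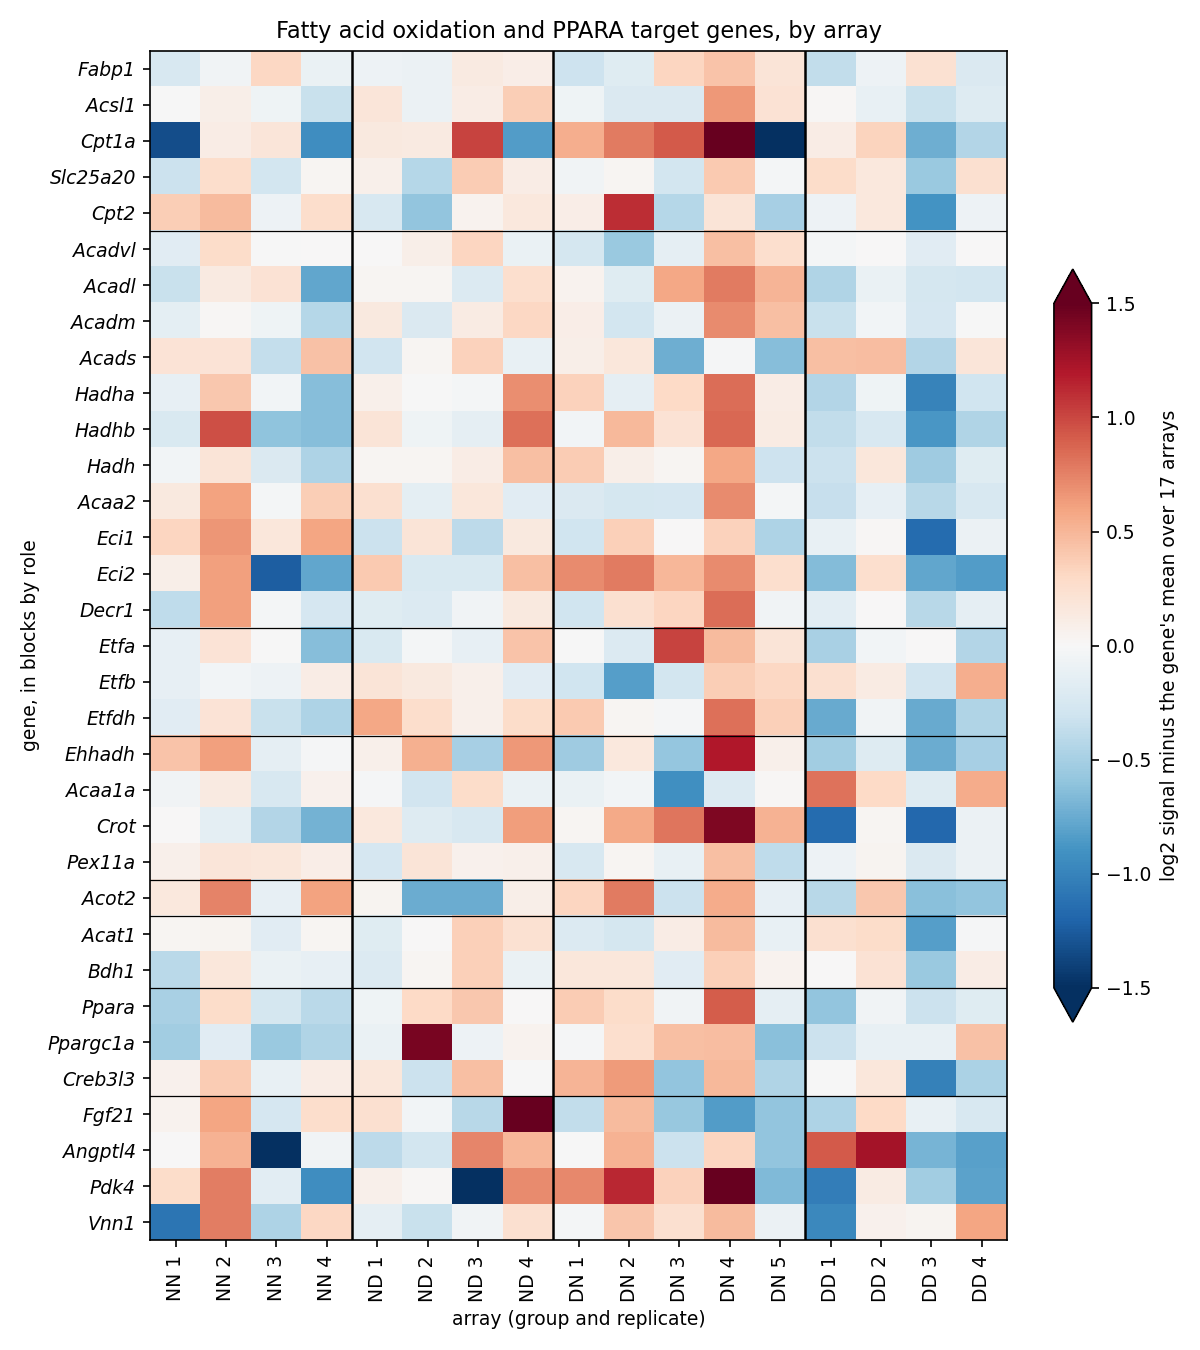
Log2 signal of each of the 33 tested genes minus its mean over the 17 arrays, with genes in rows by role and arrays in columns by group; colours are cut at 1.5 on either side. DD 3 is below the gene mean for 30 of 33 genes, and DN 4 is above it for 30 of 33.

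**Figure D2:**
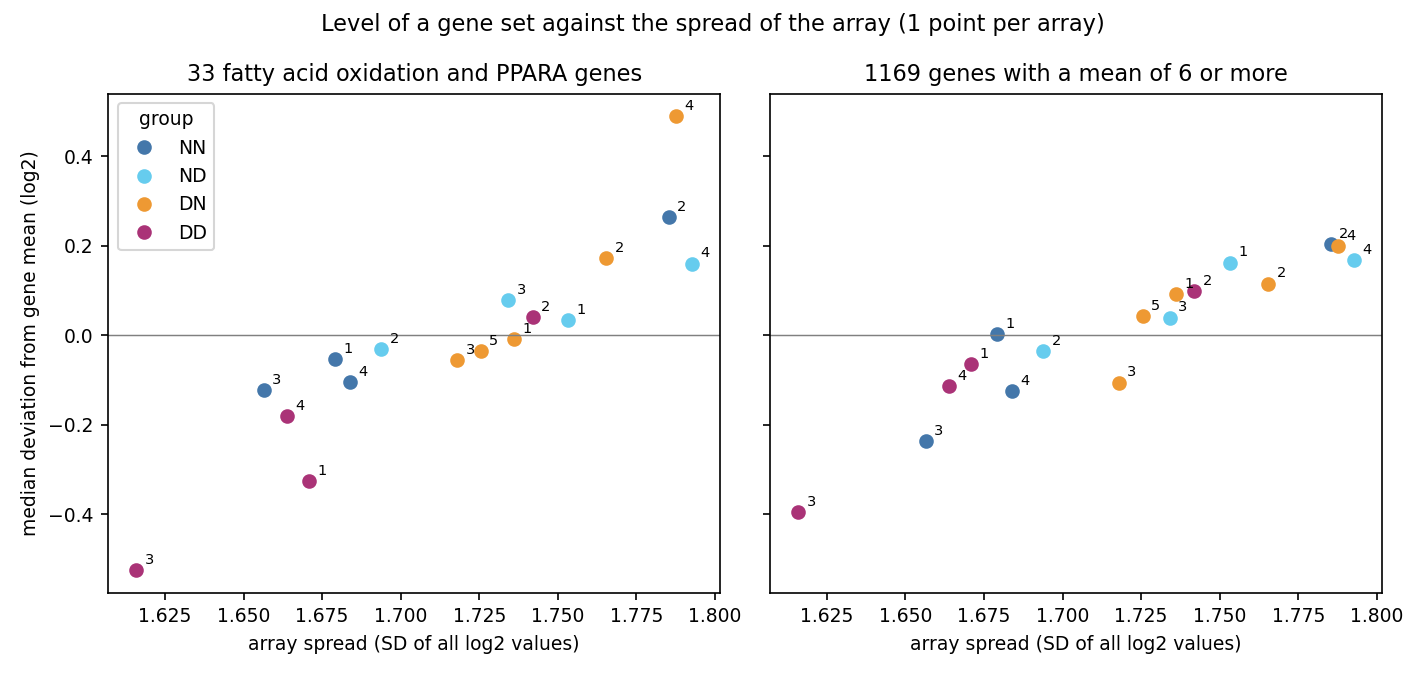
Median deviation of a gene set from its gene means (log2) against the spread of the array (SD of all log2 values), 1 point per array with its replicate number, for the 33 genes of fatty acid oxidation and PPARA (left) and for the 1169 genes with a mean of 6 or more (right). In both panels DD 3 has the lowest spread (1.62) and the lowest deviation (-0.52 and -0.39).

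No gene of the 33 passed the test in any of the 9 comparisons (limma, Benjamini-Hochberg adjusted p under 0.05 over all genes tested), namely each of the 6 pairs of groups, the lactation diet and the pregnancy diet each averaged over the other, and the interaction of both. A test for any difference among the 4 groups also called 0 of the 33, and 0% of all genes. At unadjusted p under 0.05 it listed 8 of the 33, which is 24.2%, where 10.9% of all genes tested were listed. These 8 were Etfdh, Crot, Eci2, Hadha, Ppara, Acadl, Eci1 and Acot2. Most of the 33 had a mean log2 signal of 6 or more, while most of all genes tested were dimmer. Shares of all genes, here and below, are therefore not a like-for-like measure. DD had the lowest group mean for 21 of the 33 genes (63.6%). That share was 31.4% among all genes tested and 51.2% among the 1169 brighter genes. DN had the highest group mean for 16 (48.5%), against 25.3% of all genes and 41.2% of the brighter ones. Below, each difference is the first group minus the second on the log2 scale with its SE, and a difference of 1 is a 2-fold difference in signal.

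The genes of uptake, activation and carnitine transport came first in the path. Fabp1 encodes the liver fatty acid binding protein, and its signals ranged over 0.79 across the 17 livers, the narrowest range of the 33 genes. Its group means were 9.89 in NN, 9.93 in ND, 10.01 in DN and 9.81 in DD. Acsl1, a long-chain acyl-CoA synthetase, had means of 9.53, 9.75, 9.68 and 9.45 in the same order. Cpt1a encodes the carnitine palmitoyltransferase of the outer membrane, the main control point of mitochondrial entry. Its log2 signal was 4.70, 6.14, 6.21 and 5.10 in NN, 6.18, 6.17, 7.05 and 5.20 in ND, 6.58, 6.82, 6.96, 7.56 and 4.51 in DN, and 6.15, 6.37, 5.30 and 5.60 in DD. DN held both the highest and the lowest liver of the study for Cpt1a (DN 4 and DN 5), and all groups overlapped. The DD minus DN difference was -0.63 ± 0.500 with an interval (95%) of -1.68 to 0.42 (adjusted p = 0.511). Slc25a20, the carnitine-acylcarnitine carrier, had means between 5.84 and 5.95 in the 4 groups, and Cpt2, which re-forms acyl-CoA inside the matrix, had means of 5.82 in NN, 5.41 in ND, 5.66 in DN and 5.34 in DD.

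Of the 11 genes grouped here under mitochondrial beta-oxidation, Eci2 among them, 9 were lower in DD than in DN and 2 were higher. Their median was -0.37, and none passed the test. Hadha and Hadhb encode the alpha and beta subunits of the trifunctional protein, which carries out the last 3 steps for long chains. Hadha had signals of 6.87, 7.40, 6.95 and 6.35 in NN, 7.07, 6.98, 6.96 and 7.69 in ND, 7.34, 6.86, 7.29, 7.83 and 7.10 in DN, and 6.55, 6.93, 5.99 and 6.69 in DD. All 4 DD livers lay below all 4 ND livers, and DD 2 was the only DD liver to reach the DN range. Hadhb had signals of 6.25, 7.44, 5.87 and 5.83 in NN, 6.67, 6.42, 6.34 and 7.30 in ND, 6.43, 6.96, 6.69, 7.34 and 6.59 in DN, and 6.10, 6.23, 5.60 and 6.03 in DD. The DD livers lay below every DN and every ND liver, and NN 2 stood more than 1 log2 unit above the other NN livers. The DD minus DN difference was -0.75 ± 0.235 for Hadha (adjusted p = 0.145) and -0.81 ± 0.288 for Hadhb (adjusted p = 0.168). The DD minus ND difference was -0.64 ± 0.247 and -0.69 ± 0.304 (adjusted p = 0.55 and 0.559). Fitting array spread as a covariate gave DD minus DN differences of -0.30 ± 0.212 for Hadha and -0.13 ± 0.191 for Hadhb (limma, adjusted p = 0.888 and 0.949).

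Hadha and Hadhb lie head to head on rat chromosome 6, with their transcription starts 301 bases apart in RefSeq (GRCr8). The middle 200 bases of the stretch between them are shown because they belong to the promoter windows of both genes of the trifunctional protein, which are read on opposite strands. No match to the PPAR element described further on was found in the windows of either gene with up to 2 mismatches. The stretch is chr6:31907551-31907750 on the plus strand, with no part marked in capitals.
Hadha and Hadhb: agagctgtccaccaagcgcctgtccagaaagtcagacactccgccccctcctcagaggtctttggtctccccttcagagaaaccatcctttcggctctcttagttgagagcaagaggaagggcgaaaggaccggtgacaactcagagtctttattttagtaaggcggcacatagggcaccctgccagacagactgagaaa
Of 30 of the genes with both a RefSeq promoter window and a probe set, 3 had a window that overlaps that of a gene on the other strand (10%): Hadha, Hadhb and Etfdh. Among 11787 genes with both, 586 did so (4.97%).

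The acyl-CoA dehydrogenases carry out the first step, each for its own chain length. Acadl, the long-chain enzyme, had signals of 8.07, 8.54, 8.62 and 7.62 in NN, 8.43, 8.44, 8.20 and 8.66 in ND, 8.45, 8.22, 8.98, 9.19 and 8.91 in DN, and 7.96, 8.31, 8.14 and 8.13 in DD. DN held the 3 highest livers, and DD and DN overlapped between 8.22 and 8.31. Acadl stood at 0.54 ± 0.208 in DN minus NN (adjusted p = 0.321), and at 0.34 without NN 4, and its DD minus DN difference was -0.62 ± 0.208 (adjusted p = 0.154). Acadm, the medium-chain enzyme, had signals of 7.82, 7.99, 7.90 and 7.53 in NN, 8.11, 7.75, 8.09 and 8.28 in ND, 8.06, 7.69, 7.87, 8.67 and 8.42 in DN, and 7.63, 7.93, 7.72 and 7.96 in DD. Its groups overlapped in every pair, with DN 4 and DN 5 highest. Acadvl, the very-long-chain enzyme, had means of 7.80, 7.86, 7.73 and 7.73 in NN, ND, DN and DD. Acads, the short-chain enzyme, had means of 6.11, 5.98, 5.76 and 6.15, which put DD above DN. Hadh, the short-chain hydroxyacyl-CoA dehydrogenase, had means of 8.69, 8.98, 8.97 and 8.60.

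Eci1, Eci2 and Decr1 are auxiliary enzymes that let the double bonds of unsaturated fatty acids enter the spiral. Eci2 had signals of 7.08, 7.62, 5.76 and 6.21 in NN, 7.39, 6.77, 6.77 and 7.45 in ND, 7.71, 7.77, 7.49, 7.71 and 7.24 in DN, and 6.34, 7.25, 6.22 and 6.16 in DD. The 5 DN livers lay close together, while the NN livers were spread over nearly the whole range, and DD 2 lay just above the lowest DN liver. Eci2 stood at -1.09 ± 0.309 in DD minus DN (adjusted p = 0.131) and at 0.91 ± 0.309 in DN minus NN (adjusted p = 0.281). Eci1 had signals of 7.28, 7.62, 7.13 and 7.55 in NN, 6.64, 7.15, 6.57 and 7.11 in ND, 6.66, 7.32, 6.97, 7.30 and 6.50 in DN, and 6.85, 6.98, 5.81 and 6.87 in DD. Unlike Eci2, Eci1 had its highest mean in NN, and all 4 DD livers lay below all 4 NN livers. Its difference was -0.77 ± 0.247 in DD minus NN (adjusted p = 0.999), or -0.49 without DD 3, and -0.53 ± 0.247 in ND minus NN (adjusted p = 0.889). Decr1 had means of 6.48, 6.41, 6.69 and 6.31. Acaa2, the mitochondrial thiolase of the last step, had signals of 9.36, 9.82, 9.19 and 9.59 in NN, 9.45, 9.06, 9.39 and 9.05 in ND, 9.00, 8.95, 8.96, 9.92 and 9.18 in DN, and 8.87, 9.09, 8.79 and 8.98 in DD. All DD livers were below all NN livers, and DN 4 was the highest of the 17. The DD minus NN difference of Acaa2 was -0.56 ± 0.195 (limma, adjusted p = 0.999).

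The electron transfer flavoprotein and its dehydrogenase carry electrons from the acyl-CoA dehydrogenases to ubiquinone. Etfdh, the ubiquinone oxidoreductase of this chain, had the smallest p of the 33 genes in the limma test over all groups (adjusted p = 0.384). Its signals were 7.26, 7.65, 7.10 and 6.98 in NN, 8.02, 7.70, 7.52 and 7.72 in ND, 7.83, 7.47, 7.42, 8.26 and 7.80 in DN, and 6.68, 7.38, 6.68 and 6.98 in DD. All 4 DD livers were below all DN and all ND livers, whereas DD and NN overlapped. Etfdh stood at -0.82 ± 0.191 in DD minus DN (adjusted p = 0.131), at -0.81 ± 0.201 in DD minus ND (adjusted p = 0.55), at 0.49 ± 0.201 in ND minus NN (adjusted p = 0.889) and at 0.51 ± 0.191 in DN minus NN (adjusted p = 0.31). With array spread as a covariate its DD minus DN difference was -0.50 ± 0.183 (adjusted p = 0.876). Of the flavoprotein subunits, Etfa had its means in the same order as Etfdh, with 7.37, 7.53, 7.81 and 7.27 in NN, ND, DN and DD, whereas Etfb had 7.75, 7.85, 7.64 and 7.94, with its highest mean in DD.

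**Figure D3:**
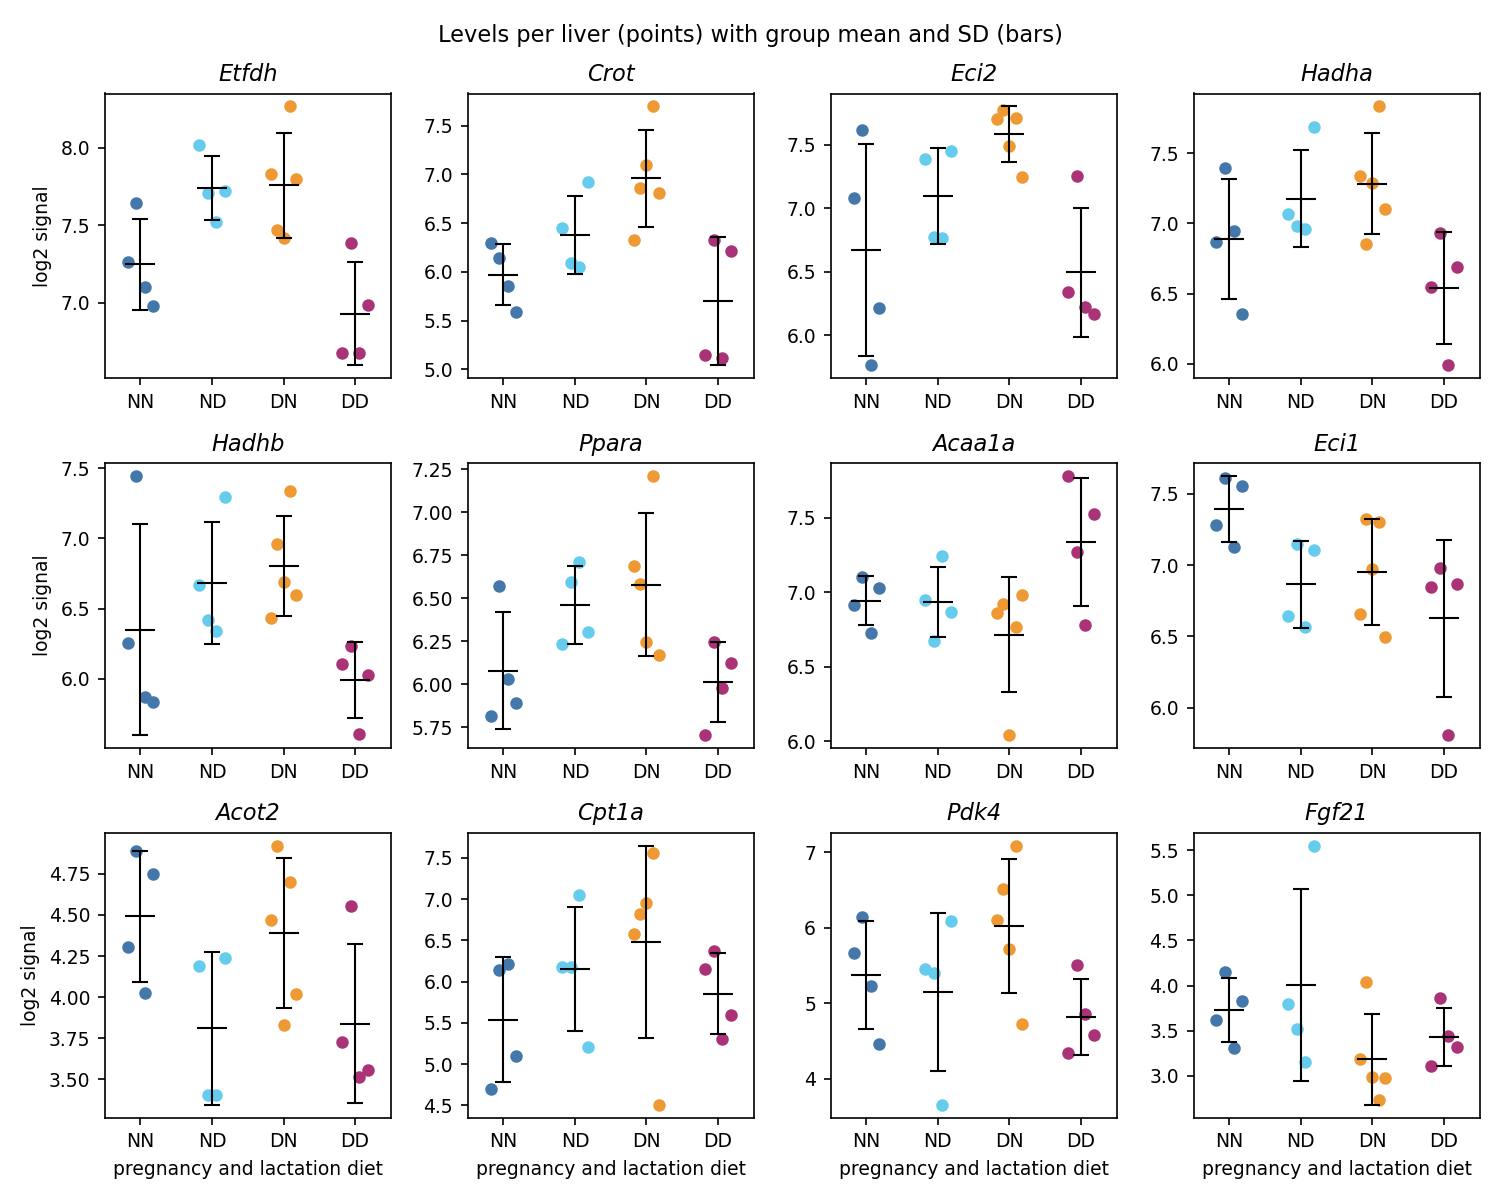
Log2 signal of 12 of the genes in each liver (points) by pregnancy and lactation diet, with the group mean and SD as bars; each panel has its own axis, which does not start at 0. For Etfdh the 4 DD livers (6.68 to 7.38) lie below all DN and ND livers, and for Acaa1a the DD mean (7.34) is the highest of the 4 groups.

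Among the peroxisomal genes, Crot and Acaa1a lay at opposite ends. Crot encodes carnitine octanoyltransferase, which hands shortened chains from the peroxisome to the carnitine route. Its signals were 6.30, 6.15, 5.85 and 5.59 in NN, 6.45, 6.09, 6.05 and 6.92 in ND, 6.32, 6.86, 7.10, 7.70 and 6.81 in DN, and 5.14, 6.32, 5.11 and 6.21 in DD. All 5 DN livers lay above all NN livers, and DD 1 and DD 3 stood about 1 log2 unit below DD 2 and DD 4. Crot had the largest difference of the 33 genes in DD minus DN, -1.26 ± 0.292 (adjusted p = 0.131), and in DN minus NN, 0.99 ± 0.292 (adjusted p = 0.281). Acaa1a, the peroxisomal thiolase, had signals of 6.91, 7.10, 6.73 and 7.03 in NN, 6.95, 6.68, 7.24 and 6.87 in ND, 6.86, 6.92, 6.04, 6.77 and 6.98 in DN, and 7.78, 7.27, 6.78 and 7.52 in DD. The 3 DD livers other than DD 3 were the highest of the study. The DD minus DN difference was 0.62 ± 0.204 (adjusted p = 0.149), and 0.82 ± 0.234 with array spread as a covariate (adjusted p = 0.876).

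Ehhadh encodes the peroxisomal bifunctional enzyme and is a classic PPARA target in rodents. Its signals were 7.48, 7.67, 6.92 and 7.03 in NN, 7.12, 7.58, 6.55 and 7.70 in ND, 6.52, 7.21, 6.48, 8.25 and 7.13 in DN, and 6.53, 6.86, 6.31 and 6.56 in DD. The DD livers lay below every NN liver, and DN spanned from 6.48 to the study's highest value in DN 4. The DD minus NN difference was -0.71 ± 0.322 (limma, adjusted p = 0.999). Pex11a, a factor of peroxisome division, had means of 3.94, 3.83, 3.76 and 3.72 in NN, ND, DN and DD. Acot2, a mitochondrial acyl-CoA thioesterase, had signals of 4.31, 4.89, 4.02 and 4.75 in NN, 4.19, 3.41, 3.41 and 4.24 in ND, 4.47, 4.92, 3.83, 4.70 and 4.02 in DN, and 3.73, 4.55, 3.52 and 3.56 in DD. Both groups on the deficient lactation diet had the lower means (3.81 in ND and 3.84 in DD, against 4.49 in NN and 4.39 in DN), with overlap in every pair. Averaged over both pregnancy diets, the deficient lactation diet difference of Acot2 was -0.62 ± 0.198 (limma, adjusted p = 0.998). With array spread as a covariate it was -0.49 ± 0.126. That fit gave -1.03 ± 0.191 in ND minus NN and 0.06 ± 0.205 in DD minus DN. Without the covariate the same differences were -0.68 ± 0.288 and -0.55 ± 0.273. Whether the signal was lower after both pregnancy diets thus depended on the fit.

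The ketone body genes had group means of 7.64, 7.76, 7.65 and 7.57 (Acat1) and 7.24, 7.38, 7.48 and 7.30 (Bdh1) in NN, ND, DN and DD. Acat1, the mitochondrial acetoacetyl-CoA thiolase, had signals of 7.69, 7.69, 7.48 and 7.69 in NN, 7.47, 7.67, 8.01 and 7.89 in ND, 7.44, 7.39, 7.76, 8.12 and 7.54 in DN, and 7.90, 7.93, 6.82 and 7.64 in DD. DD 3 was the lowest liver of the study, and the other DD livers lay within the range of the other groups. Bdh1, which interconverts acetoacetate and beta-hydroxybutyrate, had signals of 6.95, 7.53, 7.26 and 7.24 in NN, 7.16, 7.39, 7.72 and 7.26 in ND, 7.52, 7.53, 7.19, 7.71 and 7.41 in DN, and 7.37, 7.58, 6.80 and 7.47 in DD. All groups overlapped. The DD minus DN difference was -0.08 ± 0.203 for Acat1, with an interval (95%) of -0.51 to 0.35, and -0.17 ± 0.168 for Bdh1, with -0.53 to 0.18 (adjusted p = 0.851 and 0.606). The DD minus DN differences of Etfdh (-0.82) and Crot (-1.26) in the same fit lie outside both intervals. Among the genes described here, Etfdh and Crot had the smallest p in that comparison. Their place therefore does not set the ketone body genes apart from those of oxidation. The interval (95%) of Etfdh, -1.23 to -0.42, overlaps both. Some genes of oxidation, such as Acadm (-0.33) and Hadh (-0.37), lie inside both intervals, and others, such as Hadha (-0.75), lie outside. With array spread as a covariate Etfdh stood at -0.50 ± 0.183, Acat1 at 0.19 ± 0.218 and Bdh1 at 0.06 ± 0.177.

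The regulators were Ppara, its coactivator Ppargc1a and Creb3l3, a liver transcription factor released from the endoplasmic reticulum that acts with PPARA on Fgf21. Ppara had signals of 5.82, 6.57, 6.03 and 5.89 in NN, 6.24, 6.59, 6.71 and 6.30 in ND, 6.69, 6.58, 6.24, 7.21 and 6.17 in DN, and 5.70, 6.25, 5.98 and 6.12 in DD. Its groups overlapped in every pair, with DD 2 above the lowest ND and DN livers and NN 2 apart from the other NN livers. Ppara stood at -0.56 ± 0.202 in DD minus DN (adjusted p = 0.169), at -0.45 ± 0.213 in DD minus ND (adjusted p = 0.559), at 0.38 ± 0.213 in ND minus NN (adjusted p = 0.889) and at 0.50 ± 0.202 in DN minus NN (limma, adjusted p = 0.331). With array spread as a covariate the first of these was -0.30 ± 0.219. Ppargc1a had signals of 3.10, 3.46, 3.07 and 3.17 in NN, 3.52, 5.04, 3.55 and 3.67 in ND, 3.61, 3.87, 4.08, 4.09 and 2.99 in DN, and 3.30, 3.52, 3.52 and 4.06 in DD. All ND livers lay above all NN livers, and ND 2 stood more than 1 log2 unit above the others of its group. The ND minus NN difference was 0.75 ± 0.297 (adjusted p = 0.889), and 0.38 without ND 2. Creb3l3 had signals of 6.98, 7.29, 6.80 and 7.02 in NN, 7.08, 6.60, 7.37 and 6.90 in ND, 7.42, 7.56, 6.32, 7.40 and 6.46 in DN, and 6.91, 7.08, 5.91 and 6.44 in DD. Its groups overlapped, and DD 3 was the lowest liver.

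The secreted and signalling targets held 3 of the 4 widest ranges over the 17 livers, Pdk4, Angptl4 and Fgf21, and Cpt1a held the other. Fgf21, the hepatokine of fasting and ketogenesis, had signals of 3.62, 4.15, 3.31 and 3.83 in NN, 3.80, 3.52, 3.15 and 5.55 in ND, 3.19, 4.04, 2.99, 2.73 and 2.97 in DN, and 3.11, 3.87, 3.45 and 3.32 in DD. ND 4 was the highest liver by more than 1 log2 unit, and the ND minus DN difference was 0.82 ± 0.369 (limma, adjusted p = 0.999), and 0.31 without ND 4. Angptl4, a secreted inhibitor of lipoprotein lipase, had signals of 5.42, 5.94, 3.80 and 5.36 in NN, 5.02, 5.14, 6.14 and 5.91 in ND, 5.40, 5.93, 5.09, 5.74 and 4.81 in DN, and 6.33, 6.66, 4.71 and 4.59 in DD. DD held the 2 highest livers and also 2 low ones, so that its SD was 1.07. Pdk4, the kinase that shuts off pyruvate dehydrogenase when fat is burned, had signals of 5.66, 6.15, 5.23 and 4.46 in NN, 5.46, 5.40, 3.66 and 6.09 in ND, 6.10, 6.51, 5.73, 7.09 and 4.72 in DN, and 4.35, 5.51, 4.86 and 4.58 in DD. Its range of 3.43 over the 17 livers was the widest of the 33 genes, and all groups overlapped. The DD minus DN difference of Pdk4 was -1.21 ± 0.479 (adjusted p = 0.205), and -0.46 ± 0.492 with array spread as a covariate (limma, adjusted p = 0.925). Vnn1, a pantetheinase induced by PPARA, had means of 4.53, 4.58, 4.85 and 4.59 in NN, ND, DN and DD.

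The comparison of DD with DN sets the 2 lactation diets against each other in pups whose mothers were deficient in pregnancy. In it 26 of the 33 genes were lower in DD and 7 were higher, with a median difference of -0.32. The median was 0.01 over all genes tested and -0.20 over the 1169 brighter genes, of which 71.1% were lower in DD. Limma called 0 of the 33 and 0.00774% of all genes, which was Tfec, no member of these pathways. Without adjustment, at p under 0.05, 9 of the 33 were lower (27.3%), where 10.6% of all genes were, and 1 was higher, where 7.84% of all genes were. The 9 were Crot, Etfdh, Eci2, Hadha, Hadhb, Acadl, Ppara, Etfa and Pdk4, and the higher gene was Acaa1a. The groups did not overlap for Etfdh and Hadhb, which were lower in DD, as for 3.2% of all genes, and for no gene that was higher, as for 2.68%. With array spread as a covariate the median of the 33 was -0.01, with 17 lower and 16 higher. The DD minus DN difference was then -0.78 ± 0.292 for Crot and -0.41 ± 0.235 for Eci2.

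**Figure D4:**
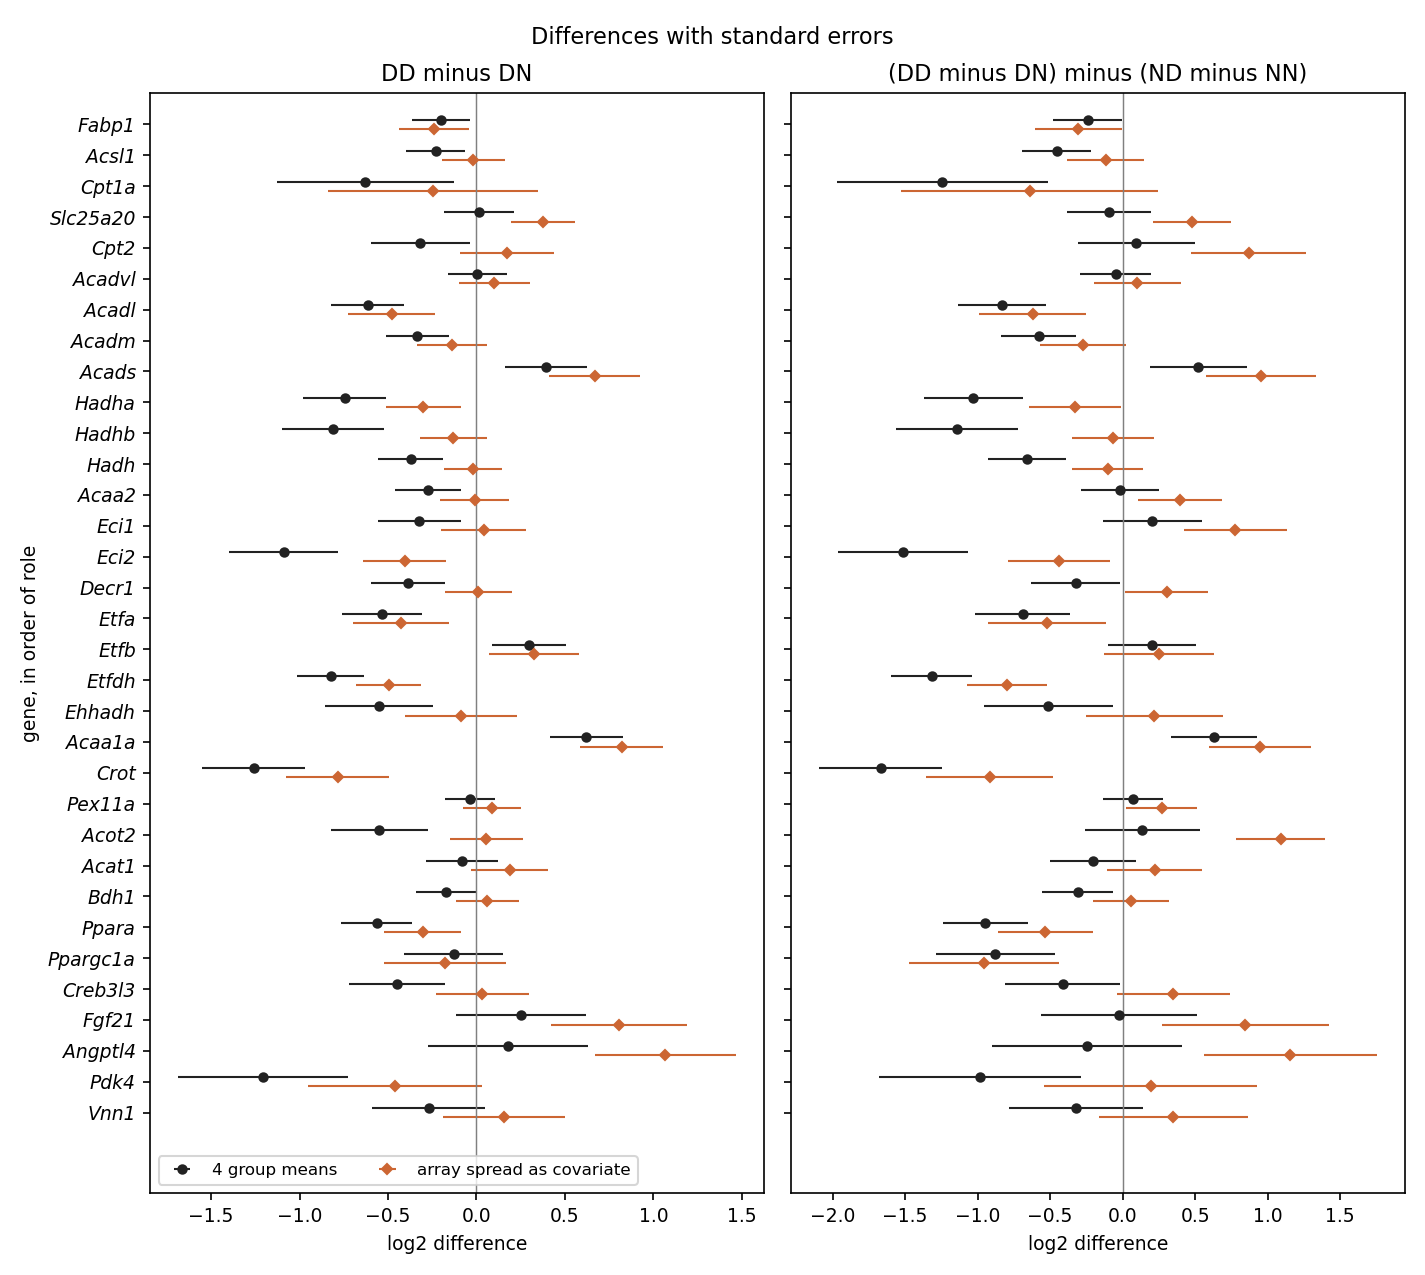
Log2 differences with their standard errors for the 33 genes in order of role, DD minus DN (left) and the interaction, (DD minus DN) minus (ND minus NN) (right), from 4 group means (black circles) and with array spread as a covariate (orange diamonds). In DD minus DN 26 of 33 circles lie below 0, and 17 of 33 diamonds do.

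The comparison of ND with NN does so in pups whose mothers had adequate choline in pregnancy. There 22 of the 33 genes were higher in ND and 11 lower, with a median of 0.12, against -0.01 over all genes and 0.13 over the brighter genes. Once array spread was a covariate, 15 were higher and 18 lower, with a median of -0.03. None of the 33 and 0% of all genes passed in limma. At unadjusted p under 0.05, Ppargc1a and Etfdh were higher (2.75% of all genes) and Acot2 (-0.68 ± 0.288) and Eci1 lower (1.88%). Ppargc1a was the only gene of the 33 whose groups did not overlap, which was so for 1.37% of all genes in that direction and 1.21% in the other. The electron transfer genes were higher in ND in 3 of 3 cases, but Etfa (0.16 ± 0.239) and Etfb (0.09 ± 0.220) by less than their SE. The regulators were higher in 2 of 3 cases, and the brighter genes leaned the same way.

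The interaction asks whether the difference made by the lactation diet depends on the pregnancy diet, as (DD minus DN) minus (ND minus NN). It was negative for 26 of the 33 genes, with a median of -0.32, against 0.03 over all genes and -0.33 over the brighter genes, of which 73.6% were negative. In limma 0 of the 33 and 0% of all genes passed. Of the 33 genes, 10 were negative at unadjusted p under 0.05 (30.3%, against 11.9% of all genes) and 1 was positive (8.12% of all genes). The brighter genes, which also leaned negative, are closer in signal to most of the 33. The smallest p belonged to Etfdh (-1.32 ± 0.278) and Crot (-1.67 ± 0.424), each with adjusted p = 0.114, and to Eci2 (-1.52 ± 0.449, adjusted p = 0.118), Ppara (-0.95 ± 0.294, adjusted p = 0.126) and Hadha (-1.03 ± 0.341, adjusted p = 0.14). The regulators were negative in 3 of 3 cases and the genes grouped under mitochondrial beta-oxidation in 9 of 11.

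The count of calls in the interaction depended on NN 2, whose array spread was 1.79 where the other NN arrays had 1.66 to 1.68. Without NN 2 limma called 6 of the 33 genes, all negative, and 639 genes in all, of which 483 were negative (3.75% of the genes tested) and 156 positive (1.21%). The 6 were Etfdh (-1.45 ± 0.275, adjusted p = 0.0269), Hadhb (-1.51 ± 0.320, adjusted p = 0.0269), Eci2 (-1.83 ± 0.397, adjusted p = 0.0281), Ppara (-1.11 ± 0.281, adjusted p = 0.0387), Crot (-1.73 ± 0.452, adjusted p = 0.0409) and Hadha (-1.20 ± 0.335, adjusted p = 0.0495). Of the 1169 brighter genes 125 were called as well, a larger share than the 4.96% of all genes tested. With NN 2 left out and array spread as a covariate, a setting added after the data had been seen, limma called 0 of the 33 and 0 of all genes. The median of the 33 was then 0.03, the smallest adjusted p among them was 0.713, and at unadjusted p under 0.05 there were 2 negative and 5 positive genes. With all 17 arrays and the covariate the median was 0.19.

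The comparison of DN with NN asks what a deficient pregnancy diet leaves behind when the lactation diet is adequate. Of the 33 genes 22 were higher in DN and 11 lower, with a median of 0.22, against -0.03 over all genes and 0.12 over the brighter genes. The test called 0 of the 33 and 0% of all genes. Crot, Eci2, Etfdh, Acadl and Ppara were higher at unadjusted p under 0.05 (15.2%, against 6.78% of all genes) and none was lower (6.63% of all genes). Crot was the only one without overlap, as were 1.12% of all genes in that direction and 1.92% in the other. The median of the 33 was 0.06 without DN 4, 0.33 without NN 2 and 0.02 once array spread was a covariate.

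The comparison of DD with ND asks the same of the pregnancy diet when the lactation diet is deficient. Of the 33 genes 27 were lower in DD, with a median of -0.25, against -0.02 over all genes and -0.20 over the brighter genes. Again 0 of the 33 and 0% of all genes passed in limma. Etfdh, Hadha, Hadhb and Crot (-0.68 ± 0.308, adjusted p = 0.559) were lower at unadjusted p under 0.05 (12.1%, against 5.84% of all genes) and none was higher (2.93% of all genes). Etfdh, Hadha and Hadhb did not overlap between the groups, as was so for 2.23% of all genes in that direction and 1.46% in the other. With array spread as a covariate the median was 0.01.

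Deficiency in both periods against neither, DD with NN, gave 24 lower and 9 higher genes of the 33, with a median of -0.09, against -0.03 over all genes and -0.06 over the brighter genes. Limma called 0 of the 33 and 0% of all genes. Eci1, Acaa2, Acot2 (-0.65 ± 0.288) and Ehhadh were lower at unadjusted p under 0.05 (12.1%, against 2.25% of all genes) and none was higher (1.33% of all genes). The groups did not overlap for Eci1, Acaa2, Ehhadh and Pex11a, which was so for 1.01% of all genes in that direction and 0.782% in the other. Acaa1a stood at 0.39 ± 0.215, or 0.25 without DD 1, opposite to Acaa2, the thiolase of the mitochondrion. Between the groups with 1 deficient period, ND with DN, 19 genes were lower and 14 higher, with a median of -0.07, and limma again called 0 of the 33 and 0% of all genes. There Fgf21 was higher in ND at unadjusted p under 0.05 (1.68% of all genes) and Acot2 lower (-0.58 ± 0.273, 1.15% of all genes), and no gene of the 33 was without overlap (0.674% of all genes higher and 0.349% lower). Crot (-0.58 ± 0.292), Pdk4 (-0.88 ± 0.479) and Eci2 (-0.49 ± 0.309) followed, each with adjusted p = 0.999, and Pdk4 stood at -0.38 without ND 3. These comparisons share groups with those above and are not independent of them.

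Averaged over the other period, the deficient lactation diet had 24 of the 33 genes lower with a median of -0.09, and the deficient pregnancy diet 18 lower with a median of -0.01. In both, 0 of the 33 and 0% of all genes passed in limma. Acot2 and Eci1 (-0.43 ± 0.170) were lower for the lactation diet at unadjusted p under 0.05 (1.55% of all genes) and none was higher (1.6%). For the pregnancy diet Acaa2 (-0.30 ± 0.134) was lower (1.84% of all genes) and none was higher (1.01%).

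A wider list of 100 other genes of fatty acid oxidation, ketone bodies and PPARA targets was read alongside, of which 70 were measured and tested. None of the 70 passed in any comparison. In DD minus DN, 48 were lower and 22 higher with a median of -0.15, and at unadjusted p under 0.05 there were 14 lower and 1 higher, where 10.6% and 7.84% of all genes were. The smallest p belonged to Slc16a1, the monocarboxylate transporter through which ketone bodies leave the hepatocyte (-0.74 ± 0.204), to Hibch, a hydrolase of valine breakdown (-0.71 ± 0.212), and to Cat, the peroxisomal catalase (-0.51 ± 0.155). For Slc16a1 and Hibch the DD and DN livers did not overlap, as was so for 3.2% of all genes in that direction. The brighter genes described above also leaned lower in DD than in DN. Cyp4a1, a fatty acid omega-hydroxylase and strong PPARA target in rats, had means of 5.84 in NN, 6.20 in ND, 6.56 in DN and 5.32 in DD, with a DD minus DN difference of -1.24 ± 0.483 (limma, adjusted p = 0.197).

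In the other pairs, the wider list also held no gene that passed. In ND minus NN, with 43 higher and 27 lower, the smallest p belonged to Sirt3, a mitochondrial deacetylase (0.45 ± 0.136), to Acsm1, a medium-chain acyl-CoA synthetase (0.75 ± 0.269), and to Acadsb, the short branched-chain dehydrogenase (0.65 ± 0.260). In DN minus NN, with 44 higher and 26 lower, they were Acot13, a thioesterase (0.79 ± 0.209, adjusted p = 0.275), Cat (0.48 ± 0.155) and Acadsb (0.76 ± 0.247). Acot13 reached 1.01 without NN 2 (limma, adjusted p = 0.0466), a setting in which 18 genes in all passed and none of the 33. In DD minus ND, with 48 lower and 22 higher, they were Acsm1 (-0.77 ± 0.269), Slc16a1 (-0.52 ± 0.215) and Acot12, a cytosolic acetyl-CoA hydrolase (-0.80 ± 0.343). In DD minus NN, with 42 lower and 28 higher, they were Slc16a1 (-0.67 ± 0.215), Ech1, a dienoyl-CoA isomerase (-0.83 ± 0.298), and Ppard, the delta receptor of the PPAR family (-0.56 ± 0.261, or -0.37 without DD 1). In ND minus DN, with 41 lower and 29 higher, they were Scp2, a peroxisomal thiolase and sterol carrier (-1.39 ± 0.514, or -0.91 without DN 3), Klf15, a fasting-responsive transcription factor (0.49 ± 0.224), and Nudt19, a peroxisomal coenzyme A hydrolase (-0.34 ± 0.164). Scp2 was dim, with means of 1.51 in NN, 1.64 in ND, 3.03 in DN and 2.21 in DD. The NN and ND means lie below the filter value of 1.73. The ND minus DN difference of Scp2 thus rests on a mean below the filter in ND, and its size cannot be judged.

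Markers of other liver cells were read beside these differences. The Kupffer cell and macrophage list had 11 of 12 markers measured and averaged 5.06 in DN and 4.86 in DD. Clec4f, Marco, C1qa and C1qb had higher means in DD and the other markers lower ones, Vsig4 the most (5.36 in DN and 3.89 in DD). The lymphocyte list averaged 2.81 in DN and 2.69 in DD, and the erythroid list 3.98 and 4.11. The endothelial list had 8 of 10 measured and averaged 5.43 in DN and 5.08 in DD, with 7 of 8 markers lower in DD and a median of -0.43. The stellate cell list, with 7 of 10 measured, averaged 4.62 in DN and 4.76 in DD, and the 7 hepatocyte markers had a median DD minus DN difference of -0.01. Markers of cholangiocytes, adipocytes, muscle and pancreas had means of at most 4.13. The part of these cell types in the differences of the fatty acid oxidation genes was not tested.

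PPARA binds a direct repeat of the motif AGGTCA with 1 base between, read here as AGGTCANAGGTCA on both strands of RefSeq promoter windows (GRCr8), from 250 bases before to 50 after each transcription start. Windows were held for 32 of the 36 genes. None had an exact match, which 0.0339% of 11787 genes with a probe set had. With up to 1 mismatch 2 of the 32 windows matched (6.25%), against 0.45% of those genes, and with up to 2 mismatches 7 did (21.9%), against 3.16%. The 7 were Acadvl, Fabp1, Crat, Creb3l3, Etfa, Slc25a20 and Slc27a2. The 2 windows with 1 mismatch are shown because they hold the letters closest to the repeat, with the match in capitals and up to 10 flanking bases on either side, none of them past the transcription start. The Acadvl match lies 17 bases upstream of the start at chr10:55236706-55236732 on the minus strand, and the Fabp1 match 77 bases upstream at chr4:104749253-104749285 on the plus strand, where the repeat reads on the opposite strand.
Acadvl: acgggagaagAGGTCAGTGGTCAaggc
Fabp1: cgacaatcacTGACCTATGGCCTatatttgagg
DD minus DN was 0.01 for Acadvl, with an interval (95%) of -0.35 to 0.36, and -0.20 for Fabp1, with -0.55 to 0.15. A match is a description of the letters in these windows, and elements outside them were not searched.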

How the data were processed

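Biotin-labelled total RNA from 17 livers was hybridised, per the labels' protocols, to Affymetrix arrays. The values deposited are log2 probe set summaries made by the authors with RMA and the affy package, per the submitters' processing notes, which give no versions. RMA corrects background, normalises across arrays and summarises probes, so values are relative. No label states the base of the logarithm, which was assumed to be 2 from the use of RMA. Groups came from the sample titles, and no label gives a scan batch.

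Of 36685 probe sets, 14824 had 1 symbol in the platform annotation, 829 had several and 21032 are unnamed here. Symbols were checked against RefSeq GRCr8 (14670 matched, 0 changed). The probe set of highest mean stood for each of 14557 genes, and 12912 passed the filter. Differences came from limma 3.58.1 (R 4.3.3), with 4 group means over all 17 arrays, 13 residual degrees of freedom and Benjamini-Hochberg adjustment over all genes tested in each comparison. Values after ± are SEs. The fit was tested on simulated data. Figures were drawn with matplotlib 3.10.9.

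The genes and lists were chosen with earlier results of these data known. Values in every array are given for the 12 genes with the smallest p over the 4 groups and for 13 genes always named (Ppara, Ppargc1a, Creb3l3, Cpt1a, Acadm, Hadha, Ehhadh, Acaa1a, Acat1, Bdh1, Fgf21, Pdk4 and Angptl4). Differences are named for the 5 genes of smallest p in each pair, and for 3 of the wider list with Cyp4a1. Other differences, among them those of the interaction and the average effects, were chosen after their values were seen. Alternatives were other filters, probe set averaging, normalisation, variance models, array weights, array spread as a covariate, the replicate number as a block, fewer groups in the fit and each array left out in turn. The replicate numbers were not taken as pairs.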

Additional observations from a re-analysis of the deposited data

Results flagged for a closer look

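A liver was looked at again where its gap to the nearest liver of its group, divided by the range of the group, passed Dixon's critical value for 4 or 5 values. This was so for 9 of 132 groups of values, and chance alone gives about 1 in 20. DD 3 stood low for Slc25a20 (5.36, ratio 0.849), Acadvl (7.61, ratio 0.831) and Eci1 (5.81, ratio 0.887). NN 3 stood low for Acat1 (7.48, ratio 0.967), by a gap of only about 0.2 log2 units to 3 nearly equal livers. DN 3 stood low for Acaa1a (6.04, ratio 0.771). ND 4 stood high for Hadha (7.69, ratio 0.847), DN 4 for Acaa2 (9.92, ratio 0.765), DD 2 for Eci2 (7.25, ratio 0.836) and ND 2 for Ppargc1a (5.04, ratio 0.901). DD 3 and DN 3 were also the arrays with the lowest mean correlation with the others.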

How the results depend on the processing

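No alternative called any of the 33 genes in a pair of groups or an average effect, and the interaction called 6 without NN 2 and 0 without any other array. In DD against DN the count of genes called over all was 1, and 0 with no filter, with array median centring, with array spread as a covariate, with only the groups compared and with DN 3 and DD 3 left out together (the last added after the data had been seen), and 0 to 1 with 1 array left out. The replicate block gave 3 genes in DD against DN and 1 for the average effect of the lactation diet, none of them among the 33. Over same-numbered arrays of different groups the correlation of deviations exceeded 0.1 in 11 of 24 pairs, with a median of 0.04 and a range of -0.45 to 0.53. Arrays of different numbers had a median of -0.03, and 8 of 17 arrays correlated best with one of their own number. The titles do not say what the numbers stand for, so they were not treated as pairing. What same-numbered arrays may share was not tested. Leaving out 1 array gave 0 to 18 genes called in DN against NN and 0 to 639 in the interaction. The median over the 33 genes ranged from -0.44 to -0.23 in DD against DN, 0.06 to 0.23 in ND against NN, 0.06 to 0.33 in DN against NN, -0.32 to -0.16 in DD against ND, -0.23 to 0.01 in DD against NN, -0.11 to 0.04 in ND against DN and -0.52 to -0.25 in the interaction when 1 array was left out. With array spread as a covariate it was -0.0104 in DD against DN, 0.0129 in DD against ND and 0.193 in the interaction, and the interaction median was -0.12 after repeated quantile normalisation. With that covariate and NN 2 left out, also added later, it was -0.0238 in DD against DN, 0.00492 in DN against NN, 0.000568 in DD against ND and 0.0342 in the interaction, and 0 genes were called in DD against DN. Cyp4a1 turned from 0.37 to -0.13 in ND against NN with array spread as a covariate, and to -0.18 when NN 2 was also left out. The cause of these shifts was not tested. With 4 or 5 livers a group, many differences of the size seen here lie within the spread between livers.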

Other observations

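Genes of fat synthesis and of the respiratory chain were read in the same fits. Of 14 lipogenic genes tested, 9 were higher and 5 lower in DD than in DN, with a median of 0.37, and 6 were higher and 2 lower at unadjusted p under 0.05, where 7.84% and 10.6% of all genes were. Scd, a stearoyl-CoA desaturase, stood at 1.74 ± 0.457 (limma, adjusted p = 0.131). Every DD liver lay above every DN liver for it, as was so for 2.68% of all genes. Srebf1, the regulator of lipogenesis, had the smallest p of that list in DN minus NN (-1.41 ± 0.492, adjusted p = 0.29) and in the interaction (2.11 ± 0.715, adjusted p = 0.144). Of 30 respiratory chain genes tested, 18 were higher and 12 lower in DD than in DN, with a median of 0.05. Uqcrc2, a core subunit of complex III, stood at -0.71 ± 0.211 (limma, adjusted p = 0.134). Its DD and DN livers did not overlap, as was so for 3.2% of all genes in that direction. None of these genes passed in any comparison.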
